A study of Mus musculus with 16 samples.

Results

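The genes of MHC class II antigen presentation were examined in mouse adrenal glands as 8 genes chosen by symbol: H2-Aa, H2-Ab1, H2-Eb1, H2-DMa, H2-DMb1, Cd74, Ciita and Cd209a. All 8 were among the 54838 genes counted, and all 8 passed the low-count filter that kept 18214 genes for testing. RNA came from whole adrenal glands, each library from another mouse. The animals were 4 weeks old, their background was mixed, and each of 4 groups held 4 of them. The groups were females and males that were controls, and females and males with an Rspo1 gain of function (GOF). The protein of this gene, R-spondin 1, is released by cells and makes others respond more strongly to WNT ligands. The labels do not say which promoter or Cre line drives the gain of function, what alleles the controls carry, or which H2 haplotype each mouse had.

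MHC class II molecules are pairs of an alpha and a beta chain that show peptides from engulfed proteins to CD4+ T cells, and they are known from dendritic cells, B cells and macrophages. H2-Aa and H2-Ab1 encode the alpha and beta chain of the I-A molecule, and H2-Eb1 encodes the beta chain of I-E, whose alpha chain gene is broken in several laboratory haplotypes. Cd74 encodes the invariant chain that fills the peptide groove and escorts the molecule to endosomes. H2-DMa and H2-DMb1 encode chains of H2-M, which exchanges the remnant of the invariant chain for peptide. Ciita encodes the coactivator that switches these promoters on by docking on RFX and NF-Y proteins bound to them. Cd209a encodes a mouse relative of the lectin DC-SIGN and is no part of this machinery; it is used as a marker of monocyte-derived dendritic cells.

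Class II genes are known to be switched on together through paired promoter elements, and the promoters of 3 members with letters of such a pair are printed as a description. H2-Ab1, Cd74 and Ciita had no entry, so how the members varied below cannot be set against their promoters. RefSeq promoter entries (build GRCm38.p6) were at hand for 5 of the 8 members, H2-Aa, H2-Eb1, H2-DMa, H2-DMb1 and Cd209a. The 150 bases before the start site are given 5′ to 3′ on the gene's strand, from base -150 to base -1. Capitals mark the letters GNAACT (N is any base) and, 15 to 35 bases further on the same strand, ATTGG, the core that NF-Y is known to bind. These letters were chosen after the sequences were seen.
H2-Aa, chr17:34287824-34287973, minus strand: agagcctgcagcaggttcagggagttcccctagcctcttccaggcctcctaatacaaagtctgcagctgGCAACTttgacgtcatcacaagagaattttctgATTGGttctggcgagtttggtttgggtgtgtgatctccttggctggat
H2-Eb1, chr17:34305717-34305866, plus strand: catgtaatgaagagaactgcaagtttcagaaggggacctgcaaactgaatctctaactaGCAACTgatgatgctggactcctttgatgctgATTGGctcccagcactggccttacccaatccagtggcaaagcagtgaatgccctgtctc
H2-DMb1, chr17:34153041-34153190, plus strand: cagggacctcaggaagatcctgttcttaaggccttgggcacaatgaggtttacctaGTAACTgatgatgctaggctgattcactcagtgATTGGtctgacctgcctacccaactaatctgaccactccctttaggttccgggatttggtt
In these 3 genes the pair began at base -81, -91 and -94 and was separated by 27, 26 and 27 bases, respectively. Searched on both strands of windows of 250 bases before to 50 after each start, the pair was present in 0.916% of 32851 promoters, GNAACT alone in 42.8% and ATTGG alone in 37.4%. Neither entry of H2-DMa nor that of Cd209a held the pair. Of 16 other genes of the class II pathway with an entry, only H2-Eb2, a neighbour of H2-Eb1, held it, with 26 bases between. The chain genes H2-DMb2, H2-Oa and H2-Ob were among those without it. Both H2-DMa windows, chr17:34122582-34122881 and chr17:34125268-34125567, lie inside the annotated gene, and the other annotated starts of H2-DMa were not searched, so the missing letters speak only for these windows. Most of the printed H2-DMb1 stretch also lies inside its annotated gene, which begins at base 34153072. A match in letters is a description of the sequence and not a measured site.

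Library totals ran from 31275146 to 43003968 counts, and levels are given as CPM (counts scaled to 1e6 per library) after TMM scaling. Rspo1 itself ran from 3.2 to 48.2 CPM in the 8 control libraries and from 354 to 972 CPM in the 8 GOF libraries, and Ddx3y, on the Y chromosome, was at 0 in the 8 female libraries and at 137 CPM or more in the 8 male ones. Marker genes of neighbouring organs set 3 libraries apart: 12 liver genes summed to 9861 CPM in male control 2, while 12 kidney tubule genes summed to 1390.1 (female control 1) and 228 CPM (female control 3), compared with 1.05 to 4.59 CPM in the other 14. The 8 chromaffin cell genes of the adrenal medulla summed to 4775 to 11465 CPM in controls and to 198 to 883 CPM in GOF, and all 8 were lower in GOF in both sexes. Whole glands were sequenced, so fewer cells of a type and less RNA per cell cannot be told apart in any result below.

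Levels of different genes are compared here as the deposited FPKM, which are per gene length. Cd74 was the most abundant member, with a median of 64.3 FPKM over 16 libraries, and H2-Ab1 followed at 18.4 FPKM. H2-DMa had a median of 5.75 FPKM, H2-DMb1 3.05, H2-Eb1 2.07, H2-Aa 1.67, Ciita 0.921 and Cd209a 0.403. Over all 16 libraries the range of each gene overlapped that of the next, so this order is one of medians. Cd74 stood clear of the second gene in 3 of the 4 groups; in female GOF its range of 32.4 to 49 FPKM met the 7.5 to 32.7 FPKM of H2-Ab1. The place of H2-Aa varied most: it was the last of 8 in female controls (median 0.468 FPKM) and the third in female GOF (median 14.9 FPKM), with ranges of 0.0746 to 16.1 and 0.326 to 18.4 FPKM that overlapped.

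**Figure D1:**
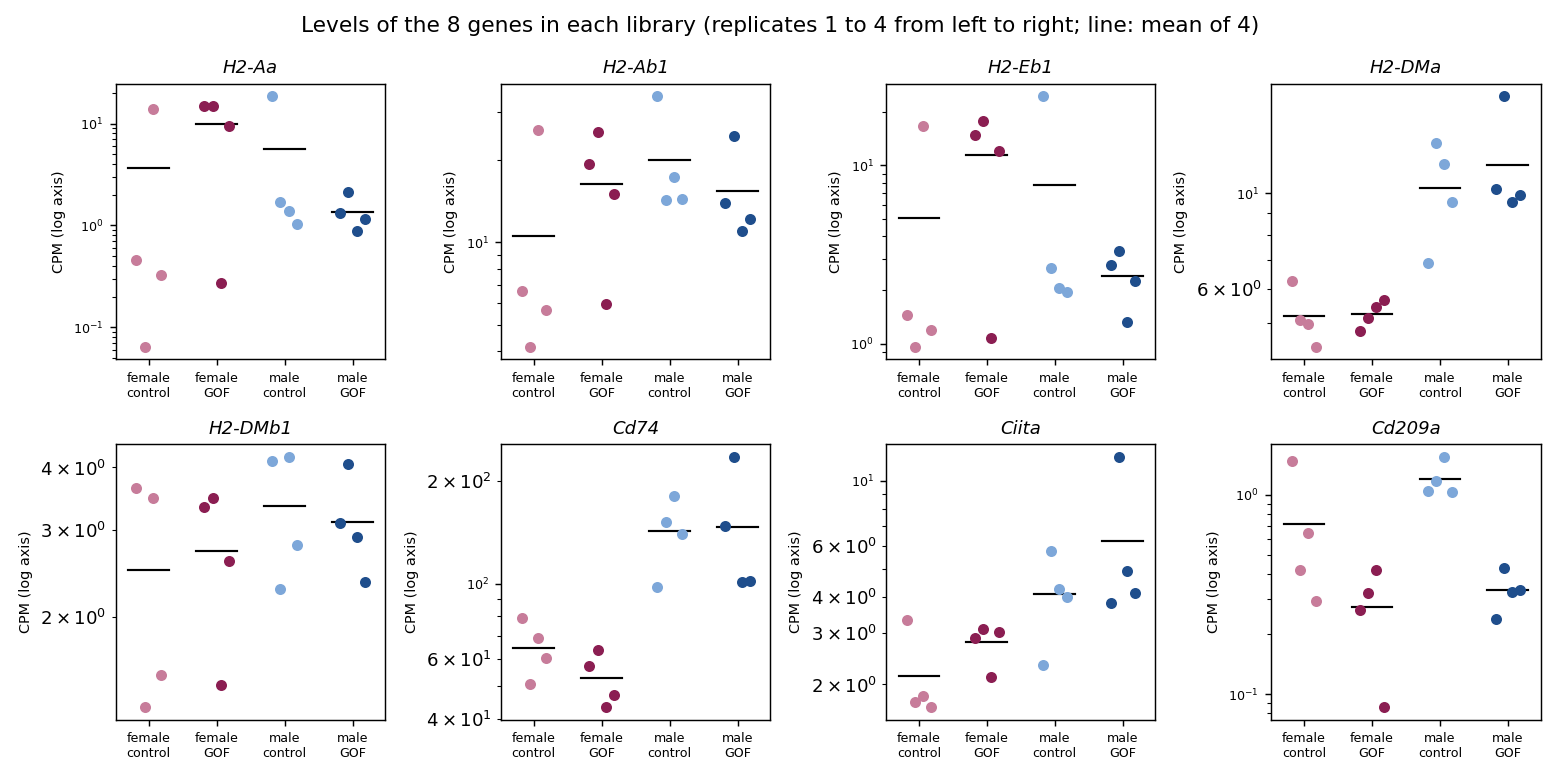
CPM on a log axis of each of the 8 genes in the 16 libraries, by group; points are libraries, in the order of replicates 1 to 4, and lines are means of 4. Cd74 and H2-DMa lie higher in both male groups than in both female groups, whereas 5 libraries from 3 groups carry the high values of H2-Aa and H2-Eb1.

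Cd74 and H2-DMa were higher in males than in females, in controls and in GOF, by 1.99-fold to 2.78-fold. Ciita was higher in GOF males than in GOF females, and its difference of 0.93 on the log2 scale in controls did not pass the test. These comparisons address how sex shapes expression in each genotype. Cd74 (ENSMUSG00000024610, chr18:60803848-60812652) measured 79.1, 50.7, 68.9 and 60.2 CPM in the 4 female controls, and 57.1, 63.9, 43.2 and 47 CPM in the 4 female GOF libraries. It measured 97.4, 152, 180.5 and 139.8 CPM in male controls, and 148, 236, 101 and 102 CPM in male GOF. Every male library was above every female one. In controls the difference was 1.14 on the log2 scale (SE 0.26, adjusted p = 0.00641), and in GOF it was 1.47 (SE 0.262, adjusted p = 0.000812; quasi-likelihood test of edgeR, Benjamini-Hochberg over 18214 genes), which are 2.2-fold and 2.78-fold.

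H2-DMa (ENSMUSG00000037649, chr17:34119541-34139101) kept the same order. Female controls had 6.25, 5.07, 4.96 and 4.4 CPM and female GOF 4.77, 5.13, 5.44 and 5.63 CPM, against 6.89, 13.1, 11.7 and 9.52 CPM in male controls and 10.2, 16.8, 9.52 and 9.88 CPM in male GOF. Again no male library fell within the female range. Males were 1.99-fold higher in controls (log2 SE 0.216, adjusted p = 0.00444) and 2.21-fold higher in GOF (log2 change 1.14, SE 0.217, adjusted p = 0.00118; edgeR's quasi-likelihood test, Benjamini-Hochberg). The annotated gene overlaps Brd2, whose reads may be shared with it in ways the sources used here do not state. The calls of Cd74 and H2-DMa in both sex comparisons were kept in each of the 11 other settings run, the one without female control 1 and male control 2 included, and with each of the 16 libraries left out.

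Ciita (ENSMUSG00000022504, chr16:10480059-10528418) had 3.34, 1.74, 1.82 and 1.67 CPM in female controls and 2.89, 3.11, 2.12 and 3.03 CPM in female GOF. Male controls had 2.34, 5.76, 4.27 and 4 CPM, and male GOF libraries 3.82, 12.1, 4.91 and 4.11 CPM. The sexes overlapped in controls and did not in GOF, and male GOF 2 was far above every other library. The log2 difference was 1.16 in GOF (SE 0.378, adjusted p = 0.0305) and 0.93 in controls (SE 0.379, adjusted p = 0.0875; edgeR's quasi-likelihood test, Benjamini-Hochberg). Without male GOF 2 the difference in GOF was 0.62 with an adjusted p of 0.143, and leaving out female GOF 1, 3 or 4 also ended the call (adjusted p = 0.0566, 0.0859 and 0.0579). It was lost as well with voom and sample weights (0.82, adjusted p = 0.0514) and with limma on unfiltered log2(FPKM + 1) (0.60, adjusted p = 0.0845). In controls a call appeared without female control 1 (1.23, adjusted p = 0.042), male control 1 (1.12, adjusted p = 0.0437) or male GOF 2 (0.92, adjusted p = 0.0338), and also with voom and sample weights (1.03, adjusted p = 0.0316).

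H2-DMb1, the partner chain of H2-DMa, lay between 1.32 and 4.2 CPM over all libraries, and its groups overlapped in every comparison. The log2 difference of males from females was 0.43 in controls (adjusted p = 0.421) and 0.19 in GOF (adjusted p = 0.73; edgeR's quasi-likelihood test, Benjamini-Hochberg). It has a close paralog in H2-DMb2, so reads of these genes may be split in ways that were not tested. In all, 2 of 8 members were called between the sexes in controls, both higher in males, where 23.4% of tested genes were called in either direction and 13.5% higher. In GOF 3 of 8 were called, all higher in males, where 29.6% of tested genes were called and 13.3% higher. The groups of 2 members lay apart with males higher in controls (14.4% of tested genes did) and of 3 in GOF (13.4%). The median of the 8 log2 differences was 0.84 in controls and 0.23 in GOF, and over all tested genes it was 0.08 and 0.03.

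**Figure D2:**
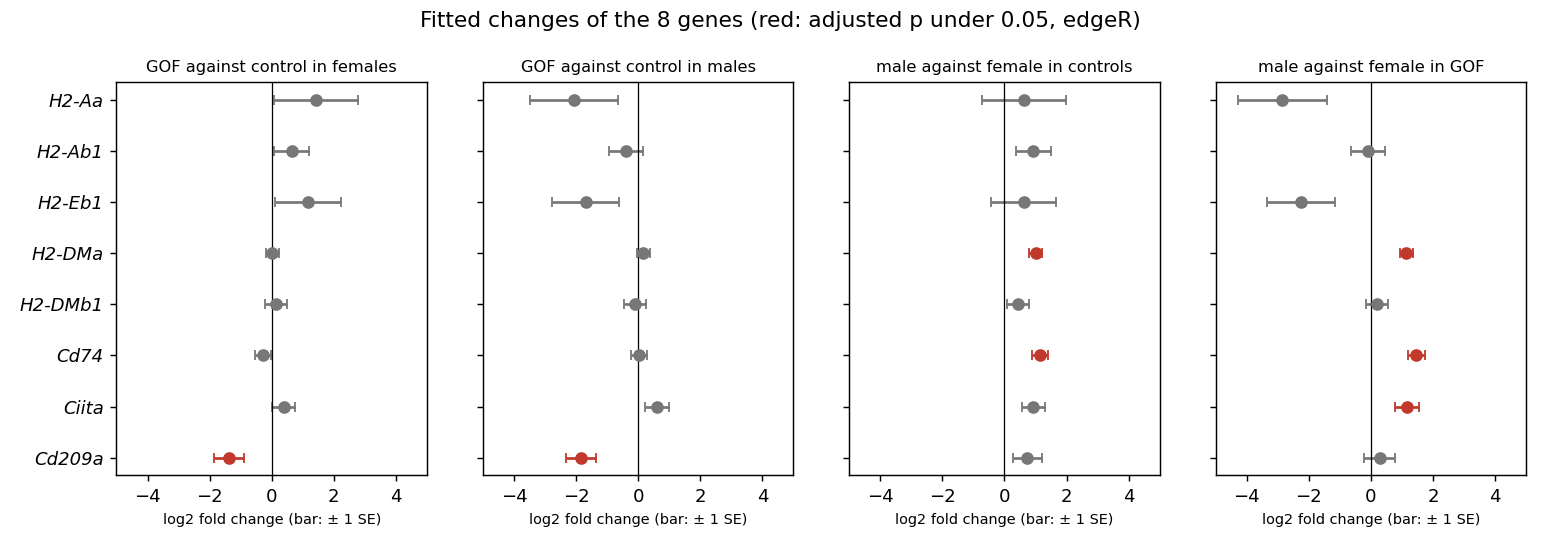
Log2 fold changes of the 8 genes (points) with 1 SE to each side (bars) in the 4 comparisons; red marks an adjusted p under 0.05 in edgeR. Cd209a is the gene called in both comparisons of GOF with control, and Cd74 and H2-DMa are called in both comparisons of the sexes, with Ciita called in GOF.

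Markers of macrophages moved with the sex difference, and those of leukocytes in general did so in part. Of all tested genes, 13.5% were called higher in males in controls and 13.3% in GOF. Of 14 macrophage genes, 9 were higher in males in controls and 11 in GOF, and 0 were lower; among them were the haemoglobin scavenger receptor gene Cd163 (1.40 in controls and 1.22 in GOF, log2), Aif1 (0.98 and 1.10), the growth factor receptor gene Csf1r (1.10 and 1.08) and the complement gene C1qa (0.95 and 1.17). The median of the 14 was 0.94 in controls and 1.09 in GOF. Summed, these 14 genes reached 153 to 289 CPM in control females and 242 to 356 CPM in GOF females, against 340.1 to 461 CPM in control males and 500.4 to 993 CPM in GOF males. For the 8 pan-leukocyte genes the sums were 81.9 to 93.1 CPM in control females, 115 to 151 CPM in GOF females, 122 to 150.2 CPM in control males and 138 to 333 CPM in GOF males. Of these 8 genes, 1 was called higher in males in controls and 4 in GOF, and 0 were lower. No macrophage or pan-leukocyte gene was at 0 in all libraries of a group. Of the 10 B cell genes, 0 were called between the sexes in controls and 1 higher in males in GOF, and of the 10 T cell genes 1 and 8 were higher. Of these counts, only that of the T cell genes in GOF was a larger share than the 13.5% and 13.3% of all tested genes. The 11 T cell genes found in the file summed to 68.1 CPM in male GOF 2, the library with the highest Ciita, H2-DMa and Cd74, and to at most 13.2 CPM elsewhere. The part of these cells in the differences of Cd74, H2-DMa and Ciita was not tested.

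Set against the macrophage or pan-leukocyte genes, the sex difference of Cd74 was smaller than that of its level. The log2 ratio of Cd74 to the summed pan-leukocyte genes was -0.44 ± 0.23 in female controls and 0.03 ± 0.25 in male controls, a difference of 0.47 (SD, n = 4 in each group). In GOF it was -1.27 ± 0.42 in females and -0.62 ± 0.38 in males, a difference of 0.65. With macrophage genes below the line the differences were 0.23 in controls and 0.34 in GOF, less than the pooled SDs of 0.54 and 0.56. For H2-DMa the ratio to pan-leukocyte genes differed by 0.31 in controls and 0.35 in GOF (pooled SDs of 0.24 and 0.40). Its ratio to macrophage genes differed between the sexes by 0.08 and 0.04 (pooled SDs of 0.57 and 0.47), and that of Ciita by 0.03 and -0.06 (0.78 and 0.80). Against dendritic cell genes the sign of the difference depended on Ly6d, which takes most of that sum. With the full list, males against females gave -0.35 in controls and -0.26 in GOF for Cd74, -0.50 and -0.56 for H2-DMa, and -0.55 and -0.66 for Ciita. Without Ly6d, a choice made after seeing the data, these were 0.85 and 0.87, 0.69 and 0.57, and 0.65 and 0.47. The summed leukocyte level was higher in every female GOF library than in every female control library, and the ratio of Cd74 to pan-leukocyte genes was lower in GOF than in control: the difference was -0.83 in females and -0.65 in males. The ratio of Cd74 to macrophage genes changed by -0.72 and -0.61. Its ratio to dendritic cell genes went the other way, by 0.94 and 1.03, and by 0.15 and 0.17 without Ly6d (pooled SDs of 0.33 and 0.30). These ratios are descriptions of summed levels and carry no test.

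**Figure D3:**
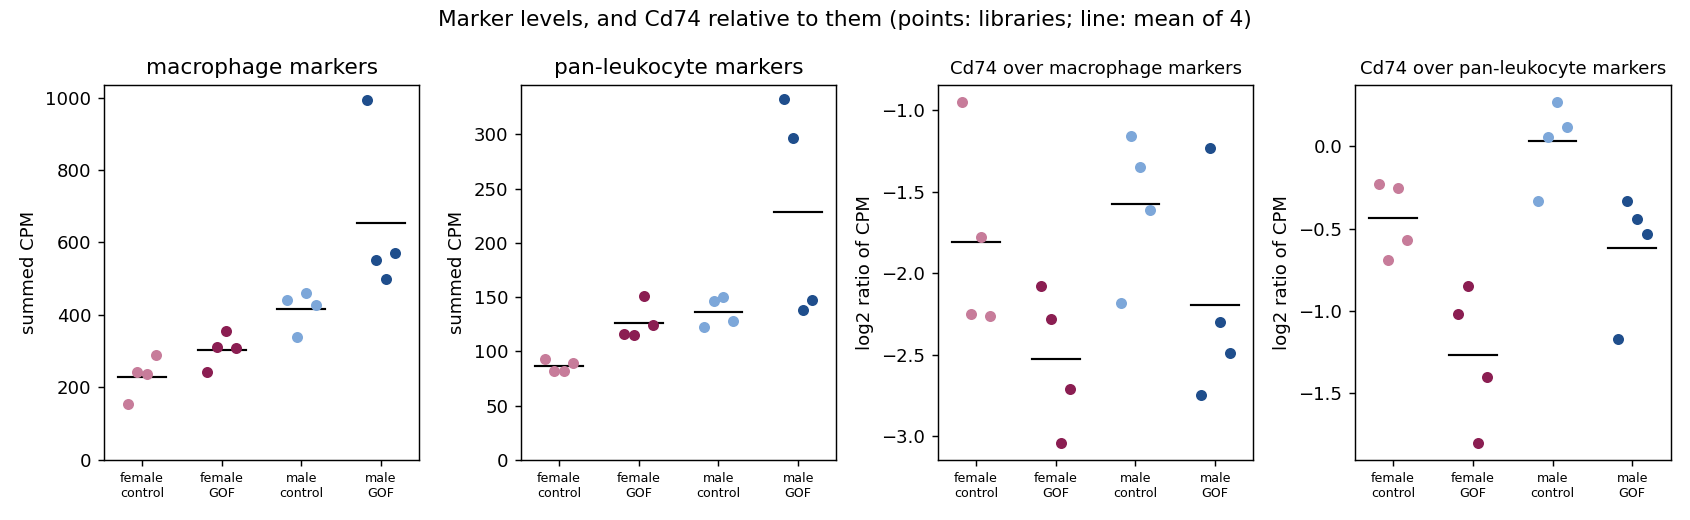
Summed CPM of 14 macrophage genes and of 8 pan-leukocyte genes in each library, and the log2 ratio of Cd74 to each sum; points are libraries and lines means of 4. The sums are higher in males than in females of the same genotype apart from an overlap of the pan-leukocyte sum in GOF, while the ratio to macrophage genes overlaps between the sexes.

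The chain genes H2-Aa and H2-Eb1 followed another pattern, with their highest values in 5 libraries from 3 groups, and H2-Ab1 shared it only in part. H2-Aa (ENSMUSG00000036594, chr17:34282744-34287823) had 0.458, 0.0646, 13.8 and 0.323 CPM in female controls and 14.8, 14.8, 0.269 and 9.41 CPM in female GOF. Male controls had 18.6, 1.7, 1.39 and 1.03 CPM, and male GOF libraries 1.33, 2.11, 0.876 and 1.15 CPM. The lowest of these values, in female control 2, rests on 2 counts. The widest step between neighbouring libraries, 2.12 on the log2 scale, lay between 2.11 and 9.41 CPM and put 5 libraries above it: female control 3, female GOF 1, 2 and 4, and male control 1. The 4 libraries with the lowest H2-Aa, from 0.0646 to 0.458 CPM, were all female.

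H2-Eb1 (ENSMUSG00000060586, chr17:34305867-34316674) had its widest step, from 3.31 to 12 CPM, below the same 5 libraries. Its values were 1.46, 0.968, 16.7 and 1.2 CPM in female controls, 14.8, 17.7, 1.08 and 12 CPM in female GOF, 24.4, 2.66, 2.07 and 1.96 CPM in male controls, and 2.76, 3.31, 1.33 and 2.24 CPM in male GOF. H2-Ab1 (ENSMUSG00000073421, chr17:34257689-34269419) had 6.66, 4.16, 25.7 and 5.64 CPM in female controls, 19.4, 25.3, 5.94 and 15 CPM in female GOF, 34.3, 14.3, 17.4 and 14.4 CPM in male controls, and 13.9, 24.5, 11 and 12.2 CPM in male GOF. In both control groups the library that was highest for H2-Aa was also highest for H2-Eb1 and H2-Ab1, by a wide margin. H2-Ab1 spanned less, 8.23-fold against 25.2-fold for H2-Eb1, and its widest step, from 6.66 to 11 CPM, set 4 female libraries below the other 12, the same 4 that were lowest for H2-Aa. All 8 male libraries lay above that step, and male GOF 2, at 24.5 CPM, exceeded female GOF 1 and 4, so the high values of H2-Ab1 came from all 4 groups.

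None of the 3 chain genes was called in any comparison, and several of their fitted changes moved with 1 library. In females the log2 change of H2-Aa with GOF was 1.43 (SE 1.36, adjusted p = 0.428), that of H2-Eb1 1.17 (SE 1.06, adjusted p = 0.404) and that of H2-Ab1 0.64 (SE 0.557, adjusted p = 0.381; edgeR's quasi-likelihood test, Benjamini-Hochberg). Without female control 3, the library with 228 CPM of kidney tubule genes, these became 5.09, 3.23 and 1.58, and all 3 were called (adjusted p = 0.0137, 0.029 and 0.0185). In males the changes were -2.06, -1.69 and -0.38 (adjusted p = 0.27, 0.237 and 0.624), and without male control 1 they were -0.01, 0.11 and 0.00. Between the sexes in controls, H2-Aa differed by 0.63 (SE 1.35, adjusted p = 0.771), which was -1.41 without male control 1 and 4.30 without female control 3. H2-Ab1 differed there by 0.93 (adjusted p = 0.243), and by 1.87 with a call (adjusted p = 0.0169) without female control 3. In GOF, where the male libraries were close together, the difference was -2.85 for H2-Aa and -2.24 for H2-Eb1 (adjusted p = 0.155 and 0.141), and a fit of these 2 groups alone called both (adjusted p = 0.0465 and 0.0419). For H2-Ab1 it was -0.09 (adjusted p = 0.918).

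The members fell into blocks by how they varied over the 16 libraries, but H2-Aa varied with both blocks in 11 of them. On log2 CPM, Pearson's r of H2-Aa was 0.97 with H2-Eb1, 0.89 with H2-Ab1 and 0.67 with H2-DMb1, and 0.00 with Cd74, 0.05 with Ciita and -0.11 with H2-DMa. Among the others, r was 0.93 between H2-DMa and Cd74, 0.89 between H2-DMa and Ciita and 0.80 between Cd74 and Ciita. Cd209a had r between -0.16 and 0.46 with the other 7. Across the blocks, H2-DMb1 had r of 0.53 with Cd74 and 0.47 with Ciita, and H2-Ab1 had 0.41 and 0.36. Among the 11 libraries at or below 2.11 CPM of H2-Aa, its r was 0.92 with Cd74, 0.92 with H2-DMa and 0.86 with Ciita. In that set every female library had less H2-Aa than every male one. The values near 0 over 16 libraries thus depended on the 5 libraries above that level. H2-Aa was 0.864% to 1.13% of Cd74 by CPM in the 4 male GOF libraries, against 0.127% to 25.9% over all 16, where the lower end rests on the 2 counts of female control 2. These are descriptions over libraries that also share group, depth and sex.

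**Figure D4:**
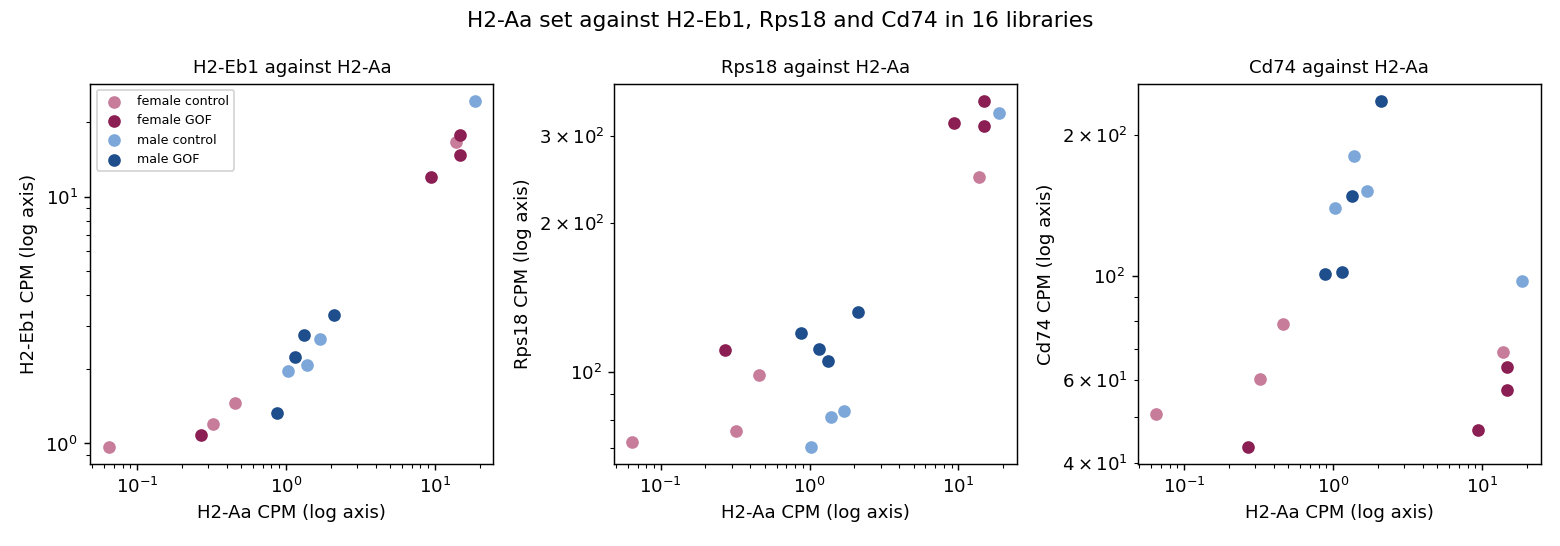
H2-Aa against H2-Eb1, Rps18 and Cd74 in CPM on log axes; each point is 1 of 16 libraries, coloured by group. The same 5 libraries are at the upper right for H2-Eb1 and Rps18, while with Cd74 the 11 libraries at or below 2.11 CPM of H2-Aa form a rising line, with the 4 female libraries at its lower end and the 7 male ones above them, and the 5 others lie off it.

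The genes whose levels were most like H2-Aa lay to a large part on its own chromosome. The members themselves were left out of this ranking; of them, H2-Eb1 and H2-Ab1 had r of 0.97 and 0.89 by level and 0.98 and 0.96 by deviation from the group mean. By r over 16 libraries the nearest other named gene was Rps18, a ribosomal protein gene at chr17:33951999-33956001 (r = 0.89), followed by Rps13 on chromosome 7 (0.79), H2-Q5 (0.78) and Eme2 (0.77), both on chromosome 17. After group means were removed, Rps18 (0.94) and Eme2 (0.88) were nearest among genes that are no members. Of the 25 genes most like H2-Aa, members left out, 12 were on chromosome 17 by level and 7 by deviation from the group mean, where 4.9% of the tested genes are. For Cd74 the numbers were 0 and 1 of 25. Rps18 showed its widest step, from 132 to 248 CPM, at the same 5 libraries as H2-Aa and H2-Eb1. The labels give a mixed genetic background, and whether alleles of this stretch differed between mice, in expression or in how reads aligned, was not tested. For the mean of H2-Aa, H2-Ab1, H2-Eb1 and Cd74, the most alike genes were the class I gene H2-K1 (0.70), Zfyve26 (0.68) and H2-Q5 (0.68).

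Genes most like Cd74 were of another kind. By level they were Timd4, a receptor of resident macrophages (r = 0.93), Akna (0.93), Pitpnm1 (0.91), the angiotensin receptor gene Agtr1a (0.90), Smagp (0.90), Creb3l1 (0.89), Gja4 (0.89) and Jak3 (0.89). After group means were removed they were Aff3 (0.90), the leukocyte tetraspanin gene Cd37 (0.87), Alox5, Hsd17b14, Myo1g and Lsp1 (0.84 each) and Traf1 (0.82). Those most like H2-DMa by level included Smagp (0.91), Timd4 (0.89) and the Y-linked genes Kdm5d (0.89) and Eif2s3y (0.89), on a chromosome that females lack.

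Cd209a was lower in GOF than in control glands of both sexes, and some but not all other C-type lectin genes were lower with it. Cd209a (ENSMUSG00000031494, chr8:3743397-3748984) had 1.48, 0.42, 0.646 and 0.294 CPM in female controls and 0.263, 0.321, 0.418 and 0.0858 CPM in female GOF. In males it had 1.05, 1.17, 1.55 and 1.03 CPM in controls and 0.239, 0.429, 0.326 and 0.332 CPM in GOF. These levels rest on 3 to 55 counts per library. The groups overlapped in females and were apart in males. The log2 change was -1.38 in females (SE 0.488, adjusted p = 0.0355) and -1.85 in males (SE 0.479, adjusted p = 0.00756; edgeR's quasi-likelihood test, Benjamini-Hochberg), which are 2.6-fold and 3.6-fold lower in GOF.

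The call in females depended on single libraries and on the fit. Without female control 1, the library with the most kidney tubule transcripts, the change was -0.73 (adjusted p = 0.206), and it also missed the threshold without female control 3, the other library with such transcripts, or female GOF 1, 2 or 4 (adjusted p = 0.054, 0.0717, 0.0517 and 0.0849). It was lost as well with no filter (adjusted p = 0.0556), with the 2 groups alone (0.0868) and in 3 limma fits on FPKM (0.0672 to 0.158), and of 10 other settings 4 kept it. In males it was kept with each of the 16 libraries left out, between -2.01 and -1.70. Between the sexes Cd209a was not called in controls (0.74, adjusted p = 0.253) or in GOF (0.28, adjusted p = 0.715; edgeR's quasi-likelihood test, Benjamini-Hochberg). Without female control 1 the difference in controls was 1.40 and was called (adjusted p = 0.0311), as it was with voom and sample weights (1.14, adjusted p = 0.047).

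Of the 6 tested genes of the CD209 family, Cd209a included, 3 were lower in GOF females and 4 in GOF males, and 0 were higher. Of all tested genes, 20.6% were lower in GOF females and 21.8% in GOF males. The family's median change was -1.68 and -2.09. Cd209f changed by -2.01 in females and -2.35 in males, and Cd209g by -1.80 and -2.33 (log2; adjusted p = 0.0153, 0.0068, 0.00686 and 0.00126; edgeR's quasi-likelihood test, Benjamini-Hochberg). Cd209d was lower in males (-2.77, adjusted p = 0.00838) and had -1.56 in females (adjusted p = 0.101). Cd209c had 0.61 and 0.80 and was not called. Cd209b was not called either, at -2.33 in females (adjusted p = 0.191) and 1.07 in males (adjusted p = 0.523). It measured 21.3 CPM in male GOF 2 and at most 4.54 CPM in every other library, and with it the summed family level of 26.1 CPM in male GOF 2 was the highest of all 16. Clec10a and Mgl2, which encode galactose-binding lectins of macrophages and dendritic cells, were lower too: Clec10a changed by -1.06 in females and -1.61 in males, and Mgl2 by -1.59 and -1.90. For both, the groups were apart in both sexes. Clec9a, another C-type lectin gene, went the other way in males without a call. It ran from 1.05 to 3.07 CPM in male controls and from 3.41 to 4.33 CPM in male GOF. Reads may be shared between related lectin genes, which was not tested.

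Some other marker genes fell with Cd209a and the lectin genes that were lower, while most called macrophage genes in males rose. The 7 genes of white fat summed to 1799 to 4533 CPM in the 8 control libraries and to 371 to 925 CPM in the 8 GOF libraries; 6 of them were lower in GOF females, 7 in GOF males and 0 higher, where 20.6% and 21.8% of all tested genes were lower. The 12 liver genes summed to 119 to 175 CPM in control females and 15.5 to 43.7 CPM in GOF females, and to 185 to 9861 CPM in control males and 8.34 to 87.8 CPM in GOF males, without overlap in either sex; 1 of them was called lower in females and 11 in males. Among macrophage markers, Lyve1, which marks some macrophages of connective tissue and lymph vessels, changed by -2.58 in females and -2.03 in males, and Cd163 by -1.23 and -1.41, without overlap of the groups (log2; adjusted p between 0.000227 and 0.0036; edgeR's quasi-likelihood test, Benjamini-Hochberg). These 2 were the only ones of the 14 macrophage genes called lower in either sex. In GOF females 2 others, Adgre1 (0.86, adjusted p = 0.0187) and Aif1 (0.68, adjusted p = 0.0108), were called higher, and in GOF males 6 were: Aif1, Cx3cr1, C1qa, C1qb, C1qc and Cd68, by 0.68 to 1.56 (same test, adjusted p from 0.00419 to 0.0361). In all, 4 of 14 were called in females and 8 in males, where 39.6% and 36.9% of all tested genes were called. The median change of the 14 was 0.40 in females and 0.61 in males, and their summed level had a median of 238 CPM in controls and 309 CPM in GOF in females, with overlap, and of 435 and 562 CPM in males, without. C1qa, for example, ran from 80.7 to 113 CPM in male controls and from 116 to 241 CPM in male GOF. Lyve1 ran from 7.35 to 16.4 CPM in controls and from 0.986 to 5.49 CPM in GOF. The part of fat, liver and these macrophages in the change of Cd209a was not tested. Genes most like Cd209a over the 16 libraries were Uqcrh (r = 0.92), Cd209d (0.91), Isca1 (0.90) and the chemokine gene Ccl11 (0.89).

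**Figure D5:**
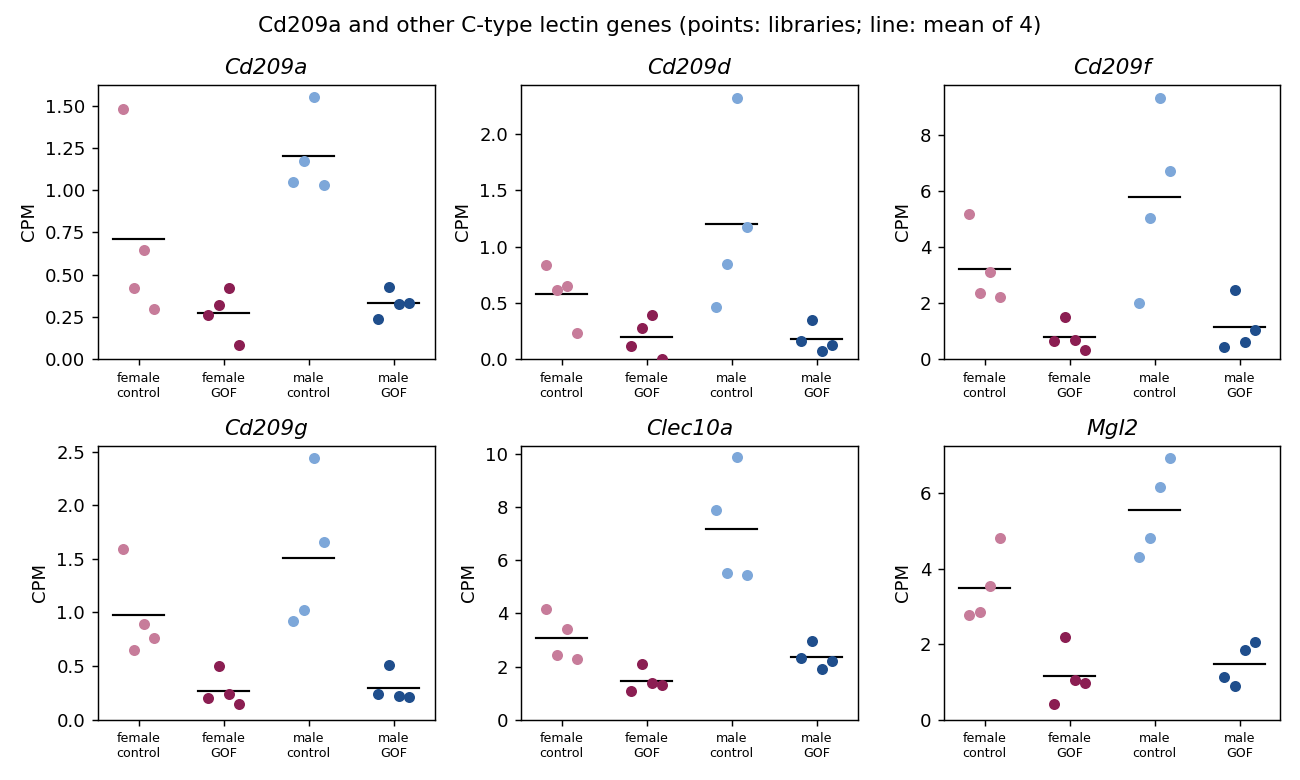
CPM of Cd209a and of 5 other lectin genes in each library by group; points are libraries and lines means of 4, and each axis starts at 0. Each mean of the genes shown is lower in GOF than in the controls of the same sex. GOF and control do not overlap for Clec10a, Mgl2 and Cd209g in both sexes, for Cd209f in females, and for Cd209a and Cd209d in males. Cd209c, whose mean is higher in GOF in both sexes, and Cd209b, whose mean is higher in GOF males, are not shown.

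Apart from Cd209a, the members did not pass the test for GOF in either sex. In females 1 of 8 was called, where 39.6% of tested genes were called in either direction and 20.6% lower. In males 1 of 8 was called, where 36.9% were called and 21.8% lower. The groups lay apart, GOF lower, for 0 of 8 in females (20.4% of tested genes) and for 1 of 8 in males (19.1%). The change of Cd74 was -0.29 in females (SE 0.258, adjusted p = 0.389) and 0.04 in males (SE 0.256, adjusted p = 0.913), and that of H2-DMa was 0.02 and 0.17 (SE 0.216 and 0.213, adjusted p = 0.953 and 0.573; edgeR's quasi-likelihood test, Benjamini-Hochberg). Ciita had 0.38 and 0.61 (adjusted p = 0.45 and 0.215), and H2-DMb1 0.13 and -0.11 (adjusted p = 0.808 and 0.84). The direction for H2-DMa in females turned under other scalings, to -0.01 with upper-quartile factors and 0.00 with RLE factors. The median over the 8 genes was 0.25 in females and -0.25 in males, and over all tested genes it was 0.05 and 0.01.

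The interaction of sex and genotype, the test of whether the GOF change differed between the sexes, called 0 of 8 members, where it called 4.21% of tested genes. By edgeR, 0 of 8 had an unadjusted p under 0.05, and the count was 0 in each of the 10 other settings that gave a value, DESeq2 and limma among them. The widest estimates were those of H2-Aa, -3.48 (SE 1.96, adjusted p = 0.334), and H2-Eb1, -2.86 (SE 1.51, adjusted p = 0.306; Benjamini-Hochberg). Those of Cd74 (0.34, SE 0.363), H2-DMa (0.15, SE 0.303) and Cd209a (-0.47, SE 0.683) were within 1 SE of 0.

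Other genes of the class II pathway were taken from a list of 24, of which 23 were in the file and 21 were tested. In GOF against control, 6 were higher and 1 lower in females, and 3 were higher and 1 lower in males. These 7 and 4 of 21 were smaller shares than the 39.6% and 36.9% of all tested genes called, so the calls below describe single genes and not the pathway. The median change was 0.15 and 0.23. Ctss, the cathepsin that trims the invariant chain in antigen-presenting cells, was higher in females (1.38, adjusted p = 0.0219) and had 1.11 in males (adjusted p = 0.0582; edgeR's quasi-likelihood test, Benjamini-Hochberg). Ctsl, a cathepsin that does so in thymic epithelium, was lower in both sexes, at -1.90 and -0.91. It was also the 1 listed gene with an interaction, 0.99 (adjusted p = 0.0392 in the same test). That count was 1 with 4 of the 16 libraries left out in turn and 0 with each of the others. Ifi30, a thiol reductase of lysosomes, rose in females (0.75), as did the promoter-binding subunit genes Rfxap (0.39) and Nfyb (0.35). In males Rfxap (0.40), Nfyc (0.23) and the costimulatory ligand gene Cd86 (0.53) were higher. Cd80, the other costimulatory ligand gene, was higher in females (0.73).

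Between the sexes, 5 of the 21 were higher and 0 lower in GOF males, and 2 were higher and 2 lower in control males, beside 29.6% and 23.4% of all tested genes called. Cd86 was higher in males in both genotypes, by 0.92 in controls and 1.75 in GOF, with 1.16 to 1.91 CPM in female and 2.57 to 3.4 in male controls. Cd80 was higher as well, at 0.862 to 1.21 CPM in male against 0.296 to 0.675 in female controls, and by 0.84 in GOF. H2-Ea-ps, the pseudogene of the I-E alpha chain, was higher in GOF males by 2.52 (adjusted p = 0.00667), H2-DMb2 by 1.51 (adjusted p = 0.0355) and March1, which encodes a ligase that takes class II molecules off the surface, by 0.87 (adjusted p = 0.0186; edgeR's quasi-likelihood test, Benjamini-Hochberg). Lower in control males were Ctsl (-0.71) and Nfyc (-0.27). The list's median log2 difference was 0.05 in controls and 0.07 in GOF, near the 0.08 and 0.03 of all tested genes.

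Interferon gamma is the cytokine known to induce Ciita, and 19 genes of its axis were tested. In females 0 were higher and 2 lower with GOF, and in males 2 were higher and 2 lower, smaller shares than the 39.6% and 36.9% of all tested genes. The regulator gene Irf8 was lower in GOF females (-1.51) and higher in GOF males (0.62), with an interaction of 2.13 (adjusted p = 0.000807; edgeR's quasi-likelihood test, Benjamini-Hochberg), while Socs1, a feedback inhibitor, was lower in both (-0.64 and -0.63). Irf1, a transcription factor gene, and the interferon-induced chemokine gene Cxcl9 were called in 0 of the 5 comparisons. Of the 14 class I genes, 3 were higher in GOF females and 2 lower in GOF males, and 0 were called between the sexes in controls, again under the shares of all genes. Of 12 dendritic cell markers, 4 were lower with GOF in each sex (Clec10a, Mgl2, Irf4 and Ly6d), 1 was higher in females (Itgax), and 5 were higher in males than in females in GOF, so that 5, 4 and 5 were called beside 39.6%, 36.9% and 29.6% of all genes. Batf3 (1.37) and Clec9a (1.13) were among those higher in GOF males. Xcr1, like these a marker of cross-presenting dendritic cells, was lower in males in controls (-1.91, adjusted p = 0.0282) and had -1.37 in GOF (adjusted p = 0.084; edgeR's quasi-likelihood test, Benjamini-Hochberg).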

How the data were processed

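Whole adrenal RNA of 16 mice was sequenced as paired 150 bp reads, with an RNA integrity number of at least 7.0, per the labels' protocols. The submitters' processing notes name Bowtie2 2.2.3, TopHat2 2.0.12, HTSeq 0.6.1 and DESeq 1.18.0 without roles; genome build, annotation and use of strand are not given in the sources used here. The authors deposited whole-number counts per Ensembl gene, not normalized, and FPKM values deposited by the authors scale them to gene length and library total. Of 54838 gene identifiers, 54809 were in GENCODE M21 (GRCm38), which gave symbols and coordinates.

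Groups came from the labels; each library is another mouse, and replicate numbers follow deposit order. The closest pair of libraries within a group had a chi-square per degree of freedom of 26.8, so none was a copy. The counts were filtered with filterByExpr, scaled with TMM and tested with edgeR 4.0.16 (robust quasi-likelihood, R 4.3.3) in 1 model of 4 group means, with Benjamini-Hochberg adjustment over 18214 genes and a threshold of 0.05. Correlations used log2 CPM with a prior count of 2. On simulated data for GOF against control in females (17912 genes tested, 200 changed), 57.7% of 2-fold and 80.6% of 4-fold changes were recovered. Of the calls, 5.6% were unchanged genes. In the real comparison 39.6% of genes were called, so these rates are not the power of the real test. Alternatives used DESeq2 1.42.0, limma 3.58.1, other factors, filters and units, and left libraries out. Tables and plots used Python 3.11.15.

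The 8 members and all lists were chosen with earlier results of these data known. Named were all members; from each list, up to 4 called genes per direction in order of adjusted p and those with a defining role; and up to 8 most alike genes, clone names left out; some genes under this rule are not reported here. Sequences come from RefSeq (GRCm38.p6).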

Additional observations from a re-analysis of the deposited data

Results flagged for a closer look

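In 14 of 56 groups of 4 that were examined, the highest library lay far from the other 3 relative to the group's range, or the lowest did. The cutoff flags about 1 in 20 groups of independent, normally distributed values. CPM need not be so distributed and several flags come from the same libraries, so the 14 cannot be set against that rate. Among chain genes, female control 3 stood out with 13.8 CPM of H2-Aa, 25.7 of H2-Ab1 and 16.7 of H2-Eb1, and male control 1 with 18.6, 34.3 and 24.4 CPM of the same genes. Male GOF 2 stood out for H2-DMa (16.8 CPM), for Ciita (12.1 CPM) and for the T cell markers (68.1 CPM summed), and female control 1 for Ciita (3.34 CPM). Male GOF 1 had the macrophage markers at 993 CPM summed. Male control 2 was high for liver genes (9861 CPM) and kidney tubule genes (4.59 CPM), and female control 1 for kidney tubule genes (1390.1 CPM).

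The change with GOF differed between the sexes, by the interaction term in edgeR (quasi-likelihood, Benjamini-Hochberg), in 3 of 93 listed genes: Irf8 (2.13, adjusted p = 0.000807), Ctsl (0.99, adjusted p = 0.0392) and the class I peptide-loading gene Tapbp (-0.62, adjusted p = 0.0379), where a positive value means a higher change in males. Over all tested genes the share called was 4.21%.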

How the results depend on the processing

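Of the members' calls, those of Cd74 and H2-DMa between the sexes and of Cd209a in males held wherever they could be fitted. In females with GOF, the 1 member called was 0 with no filter, with at least 10 counts in every library (6 members left), with the 2 groups alone, in 3 limma fits on FPKM and without female control 1 and male control 2 together; with 1 library left out the count was 0 to 3. In males it was 0 with the 10-count filter, where Cd209a could not be fitted, and 1 with any 1 library left out. Between the sexes the count of 2 in controls was 4 with voom weights and 2 to 4 with 1 library left out, and the 3 in GOF was 5 with the 2 groups alone, 2 with voom and with unfiltered limma, where Ciita was lost, and 2 to 3 with 1 left out. The other pathway genes called in females, 7, were 4 with no filter and without that pair of libraries, and 4 to 6 with 1 left out; in males the 4 ranged over 2 to 6 and between the sexes the 4 in controls over 4 to 6 with 1 left out, and the 5 in GOF were 9 with voom and 2 to 6 with 1 left out. The 1 interaction (Ctsl) was 2 with DESeq2 and limma on log2(FPKM + 1), 0 with no filter, with limma without filter and without that pair, and 0 to 1 with 1 left out.

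Signs turned mainly for estimates near 0. H2-DMa with GOF in females (0.02) was 0.00 with DESeq2, RLE and no filter, -0.01 with upper-quartile factors and with the 2 groups alone and -0.05 with the 10-count filter, and -0.06 to 0.12 with 1 library left out. In males H2-DMb1 was 0.02 in 3 limma fits and Cd74 -0.30 with voom. H2-Ab1 between the sexes in GOF was 0.07 or 0.08 with limma. For the interaction, H2-DMa was -0.06 and Ciita -0.22 with voom. With 1 library left out the ranges were: with GOF in females, H2-DMb1 -0.08 to 0.37; with GOF in males, H2-Ab1 -0.72 to 0.00, H2-Eb1 -2.02 to 0.11, H2-DMa -0.08 to 0.30, H2-DMb1 -0.28 to 0.02 and Cd74 -0.30 to 0.18; between the sexes in controls, H2-Aa -1.41 to 4.30 and H2-Eb1 -1.18 to 2.68; in GOF, H2-Ab1 -0.40 to 0.20, H2-DMb1 -0.01 to 0.34 and Cd209a 0.00 to 0.55; for the interaction, H2-DMa -0.06 to 0.28 and Ciita -0.29 to 0.44.

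The summed level of H2-Aa, H2-Ab1, H2-Eb1 and Cd74 per pan-leukocyte level (log2 difference) was -0.44 with GOF in females, -0.80 in males, and 0.47 and 0.11 for males against females in controls and GOF. Per dendritic cell markers, where Ly6d takes most of the sum, these were 1.34, 0.88, -0.34 and -0.80; without Ly6d, a choice made after seeing the data, these were 0.54, 0.01, 0.85 and 0.33, so that both differences between the sexes turned sign. Per macrophage marker the last was -0.20. The cause of these changes was not tested.

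No paired analysis was possible because the labels give no replicate numbers that tie mice of different groups. Depth limits Cd209a, which had 3 to 55 counts per library, and H2-Aa, which had 2 to 648 and, like Cd209a, drops out with the 10-count filter.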
